A study of Glycine max with 23 samples.

Results

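Developing seeds were compared with flowers across the microRNA (miRNA) complement of soybean, using 8 of the 23 small RNA libraries of the series: all 3 seed libraries, labelled as around 6, 8 and 10 weeks, and all 5 flower libraries. The flower libraries were flower bud at flower bud differentiation, bud before flowering, florescence, florescence on another date, and flower 5 days after flowering. All 8 came from untreated plants of the same cultivar, Williams 82, grown at an experimental station, and each library is a single sample with no stated number of plants. The libraries of an organ are therefore different stages and not replicates, so the SDs, SEs and p-values set the difference between the organs against the spread between stages and samples. Of the 2839 distinct mature sequences in the table, 583 had a mean of 5 TP5M or more over the 8 libraries and were tested. TP5M is the number of tags per 5000000 sequenced tags, the unit of the deposited values.

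A plant miRNA is cut from a hairpin precursor by DICER-LIKE1, leaving a duplex of a 5p and a 3p arm, of which usually 1 arm is kept by an ARGONAUTE protein and pairs with target transcripts almost along its whole length. Most of the conserved families target transcription factors or signalling proteins, so they act in steps such as phase change, organ boundary formation and auxin response. Flowers are built from meristems and form organs, while seeds at the weeks sampled here hold growing cotyledons that store protein and oil. Roles are given below for families as known mainly from Arabidopsis, where they belong to the usual guide strand and may not hold for its partner strand. Sequences with a name such as M5046-3p carry a locus number. Their family is that of an older miRNA name where one is listed. Failing that, it is that of a named sequence with which they share 18 bases in a row, or of a named hairpin that their own hairpin overlaps.

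The sequences on which the comparison turned are printed 5′ to 3′ from the deposited table, with bases 2 to 8 in capitals, the stretch called the seed region of a small RNA. The first set was more abundant in seeds and holds 3 arms from miR156 hairpins, the 2 leading miR167 sequences, a 5p arm of miR482 hairpins, and miRNAs described mainly in legumes.
M5046-3p: gCTCATTCtctatctgtcacc
M0930-3p: gCTCTCTCttcctctgtcatca
M2072-3p: gCTTACTCtctatctgtcatc
M4031-5p: tGAAGCTGccagcatgatctta
miR167e: tGAAGCTGccagcatgatctt
M7043-5p: gGAATGGGctgattgggaagt
miR5372: tTGTTCGAtaaaactgttgtg
miR5674a: tAATTGTGttgtacattatca
gso-miR3522a: tGAGACCAaatgagcagctga
miR5770b: tTAGGACTatggtttggacaa
The second set was less abundant in seeds, and shows both arms of miR166 hairpins, sequences of miR164, miR390, miR172, miR171 and miR169 described below, and the near copy of miR5770b that went the other way.
miR166h-5p: gGAATGTTgtttggctcgagg
miR166a-5p: gGAATGTTgtctggctcgagg
miR166j-3p: tCGGACCAggcttcattcccg
miR166a-3p: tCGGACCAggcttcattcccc
M1130-3p: cACGTGCTctccttttccagc
miR164a: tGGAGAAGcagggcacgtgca
miR390a-5p: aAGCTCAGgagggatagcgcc
M0196-3p: cGCTATCCatcctgagtttca
miR172a: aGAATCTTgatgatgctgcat
M3967-5p: gCAGCACCatcaagattcaca
miR171j-5p: tATTGGCCtggttcactcaga
M4696-3p: gGCAAGTCgtctctggctaca
miR319n: tTTGGACCgaagggagcccct
miR5761a: tTTTGTGTcgtgaagcttttg
miR5770a: tTAGGACTatggtttggacga
miR167e and M4031-5p are the same but for 1 further base at the 3′ end of M4031-5p. Counted from the 5′ end, miR5770b differs from miR5770a by A20G, with the base of miR5770b given first. Several seed regions were shared among called sequences, of which 243 of 291 were lower in any case. All 8 called sequences with AGCCAAG, of miR169, were lower in seeds, as were all 6 with GCCAAAG, of miR399, and all 4 with CGGACCA, the seed region of miR166a-3p. With GAAGCTG, of miR167, 4 of 5 called sequences were higher in seeds and 1, M0732-5p, was lower.

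The 8 libraries held about 4040000 to 5560000 tags each, of which the sequences of the table took 6.78 to 11.9%. A sequence with 0 reads could have a level of up to 2.70 to 3.71 TP5M, the value of 3 reads. Intervals and limits of this kind cover counting error only, since copies made by PCR cannot be told from separate molecules. No organ has marker genes in a table of miRNAs, so the labels could be set only against the likeness of the libraries. Over the tested sequences, the correlation of log2 levels was 0.849 to 0.935 among seeds, 0.854 to 0.945 among flowers and 0.642 to 0.782 between a seed and a flower. The library of florescence on another date stood apart from the other flowers: its correlation was 0.883 to 0.926 with the 3 pod libraries of the series and 0.854 to 0.894 with the other 4 flowers, which had 0.778 to 0.870 with the pods. It held the lowest flower value of many sequences described below, and results are given without it where a call turned on it. Another limit concerns zeros: 17 of the 583 sequences were listed at 0 in 1 library and at 100 TP5M or more in another of the same organ, among them 3 called ones (M0775-3p, M3362-3p and M7060-5p).

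Seeds had less of many more miRNAs than they had more of. At an adjusted p under 0.05 (limma with Benjamini-Hochberg adjustment over the 583), 291 sequences differed, or 49.9% of those tested. Of them, 48 were higher in seeds (8.23%) and 243 were lower (41.7%), and the median log2 difference of all 583 was -0.90. The 3 seed values did not overlap the 5 flower values for 279 sequences (47.9%), with 51 higher in seeds (8.75%) and 228 lower (39.1%). These values are relative to all sequenced tags. When the libraries were scaled on the table's own sequences instead (TMM), the median moved to -0.48, and 78 sequences were called higher and 167 lower. All 48 calls of a higher level and 167 of the 243 calls of a lower level were kept. With all 23 libraries in the fit, 37 were called higher and 186 lower, keeping 36 of the 48 and 174 of the 243. Without florescence on another date, 48 were called higher and 285 lower. In whole organs, fewer cells that hold a miRNA and less of it per cell cannot be told apart.

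**Figure D1:**
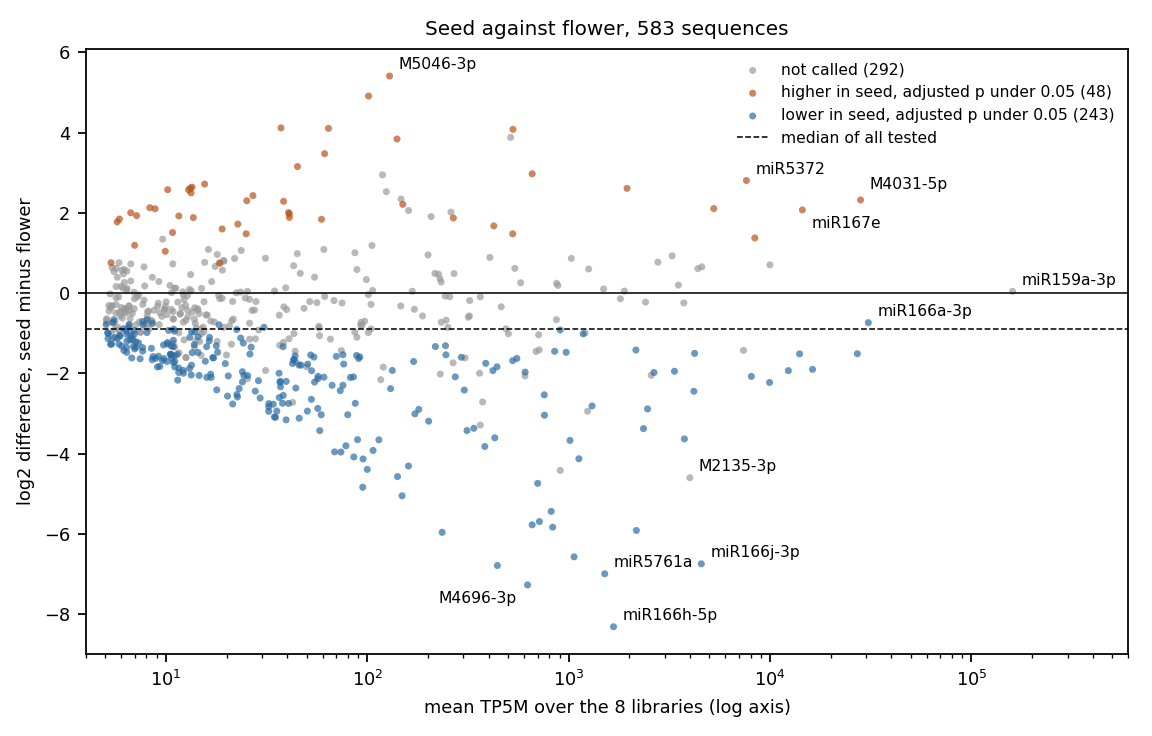
Log2 difference between seed and flower (vertical axis) against the mean level over the 8 libraries in TP5M (horizontal, log axis) for 583 sequences, with those called at an adjusted p under 0.05 in colour and the median of all, -0.90, as a dashed line. The 243 sequences called lower in seed reach -8.31 (miR166h-5p) and the 48 called higher reach 5.41 (M5046-3p), while miR159a-3p, the most abundant, lies at 0.04.

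By family, 102 sums of related sequences were tested and 57 differed (55.9%), of which 10 were higher in seeds (9.8%) and 47 lower (46.1%). The 10 higher families were miR167, miR397, miR482 and miR3522, together with miR5372, miR5670, miR5674, miR5764, miR4409 and miR1536. With TMM scaling 17 families were called higher and 32 lower, and the median family difference was -0.47, beside -0.98 as deposited. With all 23 libraries in the fit, 6 families were called higher and 35 lower. The calls lost there included those of the miR167 family, the miR397 family, the miR3522 family and the miR1536 family (adjusted p = 0.0679, 0.17, 0.157 and 0.0862). The miR1536 family had 22.5, 24.9 and 36.8 TP5M in seeds, against 15.1, 7.59, 20.7, 11.1 and 15.6 TP5M in flowers (adjusted p = 0.0404), and its call was lost with no filter on low sequences (adjusted p = 0.0994) and on leaving out any library but florescence (adjusted p of 0.0546 to 0.117). The miR4409 family had 37.8, 46.2 and 48 TP5M in seeds, against 13.2, 7.59, 9.75, 7.42 and 12 TP5M in flowers (log2 difference 1.72, SE 0.24, adjusted p = 0.000446). Both were low in all libraries and did not overlap.

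The gain in seeds was largest in amount for miR167, a family that in Arabidopsis restrains the auxin response factors ARF6 and ARF8, which act in flower maturation. The miR167 family summed to 102650.4, 82288 and 68575 TP5M in seeds of weeks 6, 8 and 10, against 31498, 25154, 12486, 27059 and 10818 TP5M in flower bud, bud before flowering, florescence, florescence on another date and 5 days after flowering. Libraries are given in that order from here on. Every seed exceeded every flower (log2 difference 2.09, SE 0.40, adjusted p = 0.00212). The call was lost with all 23 libraries in the fit (adjusted p = 0.0679). The family made up 26.4, 18.6 and 13.1% of the summed level of the table in seeds, against 6.08, 4.24, 2.16, 7.98 and 1.92% in flowers. Among seeds the sum was highest at week 6 and lowest at week 10, and among flowers it was lowest in florescence and 5 days after flowering.

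Most of that sum came from 2 sequences. M4031-5p had 65351, 54066 and 45013 TP5M in seeds, against 17127, 14001, 6242, 17573 and 5657 TP5M in flowers, a 4.52-fold higher mean (log2 difference 2.32, SE 0.43, adjusted p = 0.00228). Its near twin miR167e had 34908, 25546 and 20399.7 TP5M in seeds, against 10495, 8415, 3858, 8940.3 and 3126 TP5M in flowers (log2 difference 2.07, SE 0.45, adjusted p = 0.00515). Neither overlapped between the organs. However, with all 23 libraries in the fit neither was called (adjusted p = 0.0963 for M4031-5p and 0.127 for miR167e). The opposite arm of the M4031 hairpin (chromosome 10, 46574261 to 46574350, minus strand), M4031-3p, had 208, 147 and 91.5 TP5M in seeds, against 17, 6.64, 4.87, 11.1 and 4.6 TP5M in flowers (log2 difference 3.48, SE 0.40, adjusted p = 0.000228), and so was higher in seeds as well. Of the 9 miR167 sequences tested, 5 were called higher and 1 lower; miR167a, with means of 1704 TP5M in seeds and 2001 TP5M in flowers, was not called (log2 difference 0.05, adjusted p = 0.949).

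The largest relative difference in favour of seeds was from a miR156 hairpin. miR156 targets SPL transcription factors and holds plants in the juvenile phase, and its main product is the 5p arm. M5046-3p (chromosome 14, 9431598 to 9431708, plus strand) had 404, 496 and 121 TP5M in seeds, against 0.94, 3.8, 4.87, 1.24 and 0 TP5M in flowers, a 157-fold higher mean (log2 difference 5.41, SE 0.48, adjusted p = 6.75e-05). For M0930-3p (chromosome 2, 50779228 to 50779334, minus strand) the seed values were 81.9, 129 and 82.6 TP5M and the flower values 0, 0.95, 2.44, 0 and 0.92 TP5M (log2 difference 4.12, SE 0.27, adjusted p = 1.32e-05). Both were at or below 5 TP5M in every flower and above 50 TP5M in every seed. Without the week 10 seed the log2 difference was 6.03 for M5046-3p. Besides M5046-3p, the miR156 sequences named as higher were chosen after their values were seen.

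M2072-3p was listed at 0 in all flowers and had 14.4, 8.3 and 337 TP5M in seeds, so that its mean was at least 32.3-fold higher in seeds against the limit of 3 reads (log2 difference 3.15, SE 0.89, adjusted p = 0.0166). The week 10 seed carried most of it, and without that library the difference was 1.68 (adjusted p = 0.00104), while without week 8 or week 6 it was 4.03 or 3.75. M1578-3p had 102, 288 and 540.2 TP5M in seeds, against 63.2, 54.1, 82.8, 24.7 and 45.1 TP5M in flowers (log2 difference 2.21, SE 0.57, adjusted p = 0.0116; 2.85 without week 6). M5274-3p, M6488-3p and M4758-3p reached no more than 67.0, 39.6 and 39.1 TP5M in seeds and no more than 0.95 TP5M in any flower; for M4758-3p the log2 difference, 1.93, was 1.33 without week 10 and 2.58 without week 6. Among the 5p sequences, miR156q had 83.7, 85.4 and 17.9 TP5M in seeds, against 2.83, 4.74, 9.75, 3.71 and 8.28 TP5M in flowers (log2 difference 2.43, SE 0.48, adjusted p = 0.00319; 3.09 without week 10). miR156k had 11.7, 47.4 and 52.5 TP5M in seeds, against 6.6, 7.59, 15.8, 1.24 and 9.2 TP5M in flowers, groups that overlapped, and its call (adjusted p = 0.0257) was lost without the week 10 seed (adjusted p = 0.105) or the week 8 seed (adjusted p = 0.099) and with all 23 libraries in the fit (adjusted p = 0.242).

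Not all of miR156 went that way, and over all 583 sequences 8.23% were higher in seeds and 41.7% lower. Of 20 sequences tested, 10 were higher in seeds and 3 lower, and the miR156 family sum was not called, with 2011, 2912 and 4532 TP5M in seeds and 3191, 1693, 3172, 461 and 2406 TP5M in flowers (log2 difference 0.72, adjusted p = 0.359). M3552-3p fell to 0.9, 0 and 0 TP5M in seeds, against 262, 114, 104, 12.4 and 57 TP5M in flowers (log2 difference -3.96, SE 0.74, adjusted p = 0.00236). miR156c, the most abundant member on average, had 146, 222 and 415 TP5M in seeds and 2392, 976, 704, 151 and 498 TP5M in flowers, which overlapped (adjusted p = 0.15, and 0.022 without florescence on another date). miR156a was at 837, 991 and 949 TP5M in seeds and at 0, 0, 671, 96.4 and 573 TP5M in flowers, with 2 flowers listed at 0 and every seed above every flower (adjusted p = 0.0827, 0.0437 without florescence and 0.0469 without the flower of 5 days after flowering).

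miR172 targets AP2-like genes and in Arabidopsis rises as miR156 falls with plant age, promoting flowering. It was lower in seeds. The miR172 family summed to 282, 225 and 72.6 TP5M in seeds, against 1029, 1737, 1719, 947 and 1455 TP5M in flowers (log2 difference -2.96, SE 0.48, adjusted p = 0.00111), and 7 of its 8 tested sequences were called lower and none higher. miR172a had 1.8, 7.11 and 3.35 TP5M in seeds, against 148, 127, 122, 66.8 and 150.0 TP5M in flowers (log2 difference -3.81, SE 0.37, adjusted p = 9.45e-05). M3967-5p was listed at 0 in all 3 seeds and had 110.4, 211, 241, 68 and 129 TP5M in flowers, a level at least 42.7-fold lower in seeds (log2 difference -4.84, SE 0.43, adjusted p = 6.75e-05). No seed overlapped a flower for these. The list of phase change and flowering time, which joins both families, thus held 10 sequences called higher and 10 lower among 28 tested, with a median log2 difference of -0.59 beside -0.90 for all tested. Over all 583, 8.23% were higher and 41.7% lower.

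**Figure D2:**
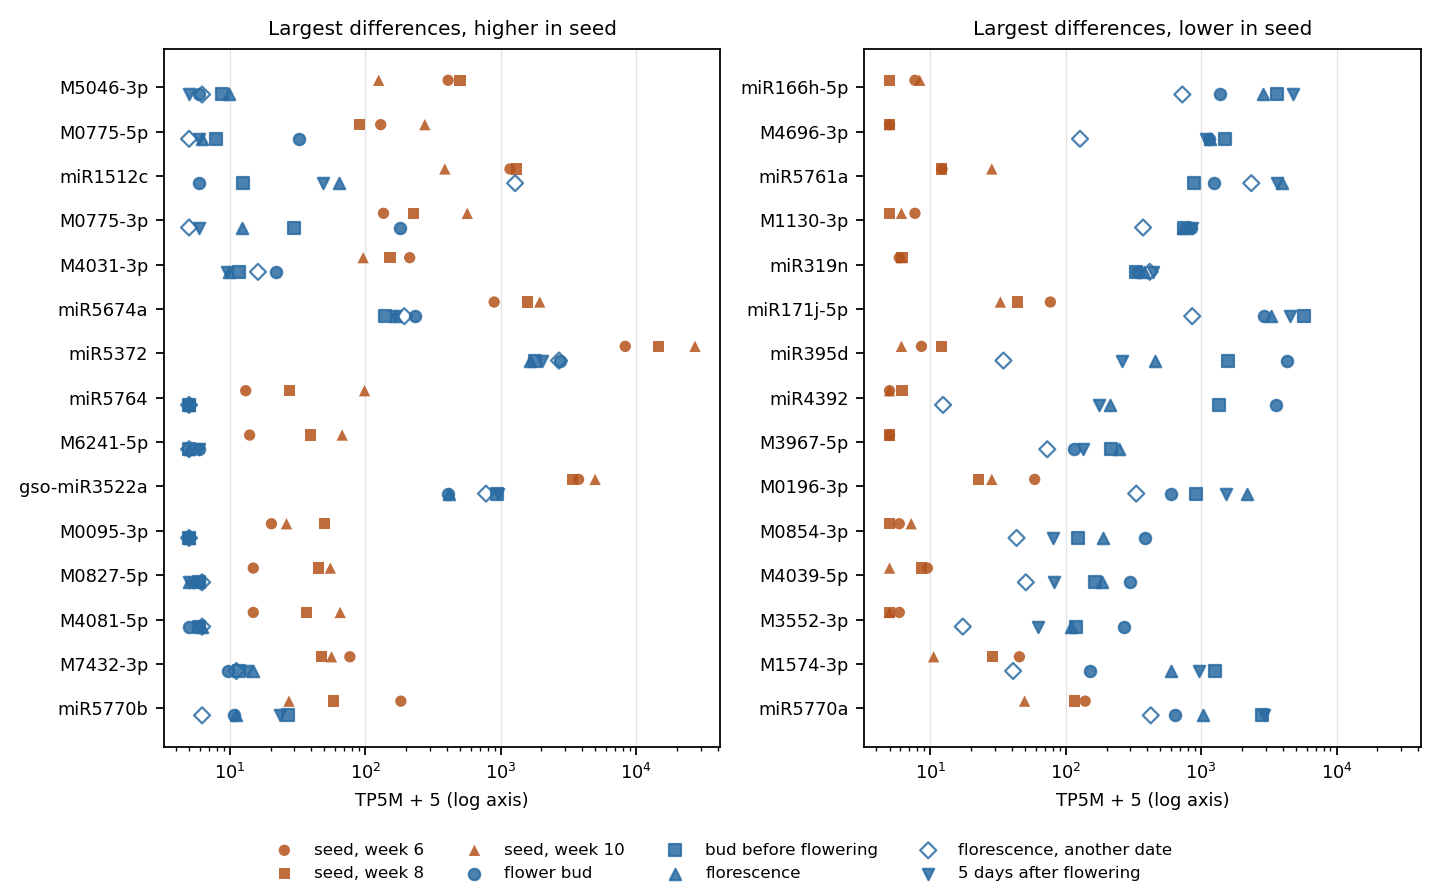
Level in each library as TP5M + 5 (horizontal, log axis) of the 15 sequences with the largest called differences in each direction, at most 1 per family; seeds are the upper points of each row in brown and flowers the lower points in blue, with florescence on another date as an open diamond. Seed and flower points are apart in every row but those of miR1512c, M0775-3p and M1574-3p.

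Several miRNAs described in legumes or known here by number rose in seeds. miR5372 (chromosome 16, 5744799 to 5744863, minus strand) reached 8308, 14659 and 27196 TP5M in seeds, against 2742, 1778, 1651, 2689 and 2007 TP5M in flowers, a 7.69-fold higher mean (log2 difference 2.81, SE 0.41, adjusted p = 0.000786). miR5674a (chromosome 9, 37395782 to 37395989, minus strand) reached 889.7, 1565 and 1936 TP5M in seeds, against 228, 136, 162, 189 and 162 TP5M in flowers (log2 difference 2.97, SE 0.40, adjusted p = 0.000516). Both were highest at week 10 and lowest at week 6, and no flower came near a seed. gso-miR3522a, listed under a Glycine soja name and without coordinates, had 3753, 3381 and 4975 TP5M in seeds, against 404, 934, 407, 774 and 956 TP5M in flowers (log2 difference 2.61, SE 0.43, adjusted p = 0.00126). miR5764 had 8.1, 22.5 and 93.8 TP5M in seeds and was listed at 0 in all flowers, at least 11.2-fold higher (log2 difference 2.72, SE 0.54, adjusted p = 0.00319; without week 10, 1.93 and adjusted p = 0.00236; without week 6, 3.38). Its order by week was that of miR5372.

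The locus M0775 (chromosome 2, 10632246 to 10632452, minus strand) gave both of its arms. M0775-5p had 125, 85.4 and 270.1 TP5M in seeds, against 27.4, 2.85, 1.22, 0 and 0.92 TP5M in flowers (log2 difference 4.11, SE 0.64, adjusted p = 0.00108). M0775-3p, which shares 18 bases with miR5670, had 131, 222 and 561 TP5M in seeds, against 175, 24.7, 7.31, 0 and 0.92 TP5M in flowers (log2 difference 3.84, SE 1.10, adjusted p = 0.0178). The flower bud overlapped the seeds for the 3p arm, and that call was lost without the week 10 seed (adjusted p = 0.0801, and 0.0657 for the miR5670 family) and with edgeR (adjusted p = 0.122, and 0.11 for the miR5670 family); without the flower bud the difference was 4.67 (adjusted p = 0.00178). M0095-3p had 15.3, 45.1 and 21.2 TP5M in seeds and 0 in all flowers, at least 7.33-fold higher (log2 difference 2.58, SE 0.30, adjusted p = 0.000261). M6241-5p, M0827-5p and M4081-5p, from loci of no known family, stayed at or below 1.24 TP5M in every flower and reached 62.5, 50.2 and 60.3 TP5M in the week 10 seed, with log2 differences of 2.64, 2.58 and 2.50 (3.27 for M6241-5p without week 6). M7432-3p had 72, 42.7 and 51.4 TP5M in seeds, against 4.72, 6.64, 9.75, 6.18 and 8.28 TP5M in flowers (log2 difference 2.30, SE 0.28, adjusted p = 0.000294).

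miR1512c was called, but not firmly. It had 1166, 1298 and 382 TP5M in seeds, against 0.94, 7.59, 58.5, 1272 and 44.2 TP5M in flowers, with florescence on another date as high as the seeds (log2 difference 4.08, SE 1.50, adjusted p = 0.0466). The call held only in some settings: without florescence on another date the difference was 5.25 (adjusted p = 0.00149), whereas leaving out any other library gave adjusted p values of 0.0739 to 0.126, edgeR gave 0.369 and a pseudocount of 1 gave 0.0552. In the pods of weeks 1, 2 and 3 the sequence had 3779.6, 8700.3 and 8530.5 TP5M. The miR1512 family sum was not called (adjusted p = 0.103, and 0.00884 without florescence on another date).

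miR482, a family whose 3p product targets transcripts of NLR disease resistance genes, was higher in seeds as a sum, with 17838, 32257 and 29477 TP5M in seeds, against 10741, 10135, 12695, 6883 and 11359 TP5M in flowers (log2 difference 1.34, SE 0.31, adjusted p = 0.0061). The 2 sequences of the NLR list called higher were 5p arms of this family. M7043-5p (chromosome 18, 61452907 to 61452997, minus strand) had 5365, 11904 and 13339.8 TP5M in seeds, against 1793, 2238, 2697, 1497 and 3169.7 TP5M in flowers (log2 difference 2.11, SE 0.41, adjusted p = 0.00267). M0530-5p, with the same bases 2 to 8, had 10408, 17069 and 13206 TP5M in seeds, against 4975, 5247, 7032, 3149 and 6086 TP5M in flowers (log2 difference 1.38, SE 0.33, adjusted p = 0.00765). The 3p arm miR482b-3p moved the other way, with 217, 193 and 198 TP5M in seeds, against 1399, 879, 703, 535 and 735 TP5M in flowers (log2 difference -1.97, SE 0.40, adjusted p = 0.00368). None of these overlapped. M7043-5p was not called with all 23 libraries in the fit (adjusted p = 0.0618). Summed over sequences that carry a name alone, the miR482 family was not called (adjusted p = 0.848).

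The other families of the NLR list were lower or not called. miR2118, known in legumes for starting secondary small RNAs from NLR transcripts, was represented mainly by miR2118a-5p, with 5456, 6524 and 4499 TP5M in seeds, against 20614, 37124, 23043, 7841 and 24849 TP5M in flowers (log2 difference -1.90, SE 0.45, adjusted p = 0.00773). miR1507a had 4825, 6352 and 8441 TP5M in seeds, against 18308, 20186, 22645, 13220.1 and 18088 TP5M in flowers (log2 difference -1.51, SE 0.28, adjusted p = 0.00211), and M4779-5p of a miR1507 hairpin had 6507, 4269 and 2497 TP5M in seeds, against 11815, 26291, 16328, 8293 and 22576 TP5M in flowers (log2 difference -1.93, SE 0.45, adjusted p = 0.0073). Neither sequence overlapped between the organs, and miR1507a was highest in the week 10 seed whereas M4779-5p was lowest there. With all 23 libraries in the fit, M4779-5p (adjusted p = 0.13), miR2118a-5p (adjusted p = 0.0817) and the miR2118 family (adjusted p = 0.0795) were not called. Nor was M4779-5p called with edgeR and TMM (adjusted p = 0.0519). miR1509a had 7533, 11216 and 22756 TP5M in seeds and 7308, 8436, 8159, 6729 and 7657 TP5M in flowers, not called as deposited (adjusted p = 0.114, and 0.0296 without week 6) and called higher with TMM (log2 difference 1.31, adjusted p = 0.00848). The miR2109 family sum differed likewise by scaling (adjusted p = 0.201 and, with TMM, 0.0155), and the miR1510 family sum was not called (log2 difference -0.32, and 0.29 with TMM). Of the 34 sequences of the list, 2 were called higher and 12 lower, beside 8.23% and 41.7% of all 583. The median was -0.59, and with TMM the counts were 6 and 8.

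Among the lists, that of meristem and organ polarity families had the lowest median. Of its 61 tested sequences 38 were called lower and none higher, beside 41.7% and 8.23% of all 583. The median log2 difference was -1.93 beside -0.90 for all tested, and with TMM 29 were lower and 1 higher. miR166 silences the HD-ZIP III genes that set the upper side of organs and the shoot meristem. The miR166 family summed to 26849, 21988 and 24933 TP5M in seeds, against 67063, 70576, 64017, 43845 and 61872 TP5M in flowers (log2 difference -1.31, SE 0.22, adjusted p = 0.00126), which was 6.92, 4.96 and 4.76% of the summed level in seeds and 13.0, 11.9, 11.1, 12.9 and 11.0% in flowers. No organ overlapped the other, and 14 of the 21 tested miR166 sequences were lower and none higher.

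The sequences of miR166 differed greatly in how far they fell. miR166a-3p, listed for 10 entries and the most abundant, had 23375, 19622 and 21699 TP5M in seeds, against 43641, 40137, 37331, 29416 and 30684 TP5M in flowers (log2 difference -0.74, SE 0.20, adjusted p = 0.0139); the call was lost with TMM (adjusted p = 0.603), without the week 8 seed (adjusted p = 0.072) and with all 23 libraries in the fit (adjusted p = 0.0513). miR166j-3p (chromosome 15, 3688764 to 3688931, minus strand), with the same bases 2 to 8, had 112, 60.5 and 31.2 TP5M in seeds, against 5860.5, 8146, 8653, 4523 and 9053 TP5M in flowers, a 106-fold lower mean (log2 difference -6.75, SE 0.46, adjusted p = 1.43e-05). Its lowest flower, florescence on another date, was still far above its highest seed. miR166h-5p (chromosome 8, 14990544 to 14990733, plus strand) showed the largest difference of all tested sequences, with 2.7, 0 and 3.35 TP5M in seeds, against 1367, 3602, 2863, 721 and 4789 TP5M in flowers (log2 difference -8.31, SE 0.64, adjusted p = 3.1e-05). miR166a-5p had 616, 362 and 373 TP5M in seeds, against 5747, 7325, 4555, 3317 and 7727 TP5M in flowers (log2 difference -3.63, SE 0.39, adjusted p = 0.000168). Every seed was below every flower for both 5p arms.

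miR164 restrains the CUC genes, NAC factors that mark organ boundaries. All 6 tested miR164 sequences were lower, and the miR164 family summed to 913, 396 and 313 TP5M in seeds, against 4562, 5834, 4649, 2936 and 5292 TP5M in flowers (log2 difference -3.22, SE 0.43, adjusted p = 0.000423). miR164a had 897, 389 and 308 TP5M in seeds, against 3418, 4648, 3561, 2486 and 4004 TP5M in flowers (log2 difference -2.89, SE 0.42, adjusted p = 0.000803). M1130-3p, from a miR164 hairpin (chromosome 3, 45537767 to 45537874, plus strand), had 2.7, 0 and 1.12 TP5M in seeds, against 837, 744, 733, 367 and 852 TP5M in flowers, a 555-fold lower mean (log2 difference -6.79, SE 0.40, adjusted p = 7.81e-06). The groups were far apart for both, and M1130-3p was at most 2.70 TP5M in any seed.

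miR171 targets HAM genes of the GRAS family, which maintain shoot meristems. The miR171 family summed to 2833, 1444 and 694 TP5M in seeds, against 8775, 15074, 12628, 4075 and 13352 TP5M in flowers (log2 difference -2.79, SE 0.56, adjusted p = 0.00277), with 14 of 18 sequences lower and none higher. miR171j-5p (chromosome 2, 4014001 to 4014153, minus strand) had 72, 39.1 and 27.9 TP5M in seeds, against 2889.7, 5694, 3256, 853 and 4511 TP5M in flowers (log2 difference -5.92, SE 0.63, adjusted p = 0.000158). miR396b-5p, of a family that limits GRF growth factors, had 3025, 2645 and 1654 TP5M in seeds, against 16208, 11600.5, 14317, 3056 and 12085 TP5M in flowers (log2 difference -2.08, SE 0.54, adjusted p = 0.0119); the lowest flower, florescence on another date, was just above the highest seed, and the call was lost without the week 10 seed (adjusted p = 0.0537). The miR396 family sum was not called (adjusted p = 0.0821), but was without florescence on another date (log2 difference -1.97, adjusted p = 0.000444). The miR394 family sum was not called (log2 difference -0.73, adjusted p = 0.195). M1574-3p, whose 5p arm was assigned to miR394 by its hairpin, had 40.5, 23.7 and 5.58 TP5M in seeds, against 146, 1262, 592, 35.9 and 958 TP5M in flowers (log2 difference -3.82, SE 1.10, adjusted p = 0.0179). Its groups overlapped through florescence on another date, without which the difference was -4.58, and without the week 10 seed it was not called (adjusted p = 0.0802).

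Among families of the auxin pathway, miR167 was alone in being higher. miR390 guides the cutting of TAS3 transcripts, whose small RNAs silence ARF3 and ARF4. All 5 tested miR390 sequences were lower, and the miR390 family summed to 137, 68.8 and 68.1 TP5M in seeds, against 1050.0, 1536, 3478, 747 and 2603 TP5M in flowers (log2 difference -4.15, SE 0.55, adjusted p = 0.000423). The guide miR390a-5p had 61.2, 37.9 and 36.8 TP5M in seeds, against 364, 545, 1087, 361 and 943 TP5M in flowers (log2 difference -3.61, SE 0.49, adjusted p = 0.00058). Its partner-arm relative M0196-3p (chromosome 1, 42335613 to 42335712, plus strand) had 54, 17.8 and 23.4 TP5M in seeds, against 589, 906, 2169.7, 326 and 1525 TP5M in flowers (log2 difference -4.74, SE 0.65, adjusted p = 0.000604). Florescence and 5 days after flowering were the highest flowers for both, and no seed reached a flower.

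miR160, which targets ARF10, ARF16 and ARF17, was low throughout, and the miR160 family summed to 10.8, 4.75 and 14.5 TP5M in seeds, against 78.3, 74, 68.2, 17.3 and 46 TP5M in flowers (log2 difference -1.96, SE 0.47, adjusted p = 0.00701). The miR393 family, which targets the auxin receptors TIR1 and AFB, summed to 1808, 1154 and 2042 TP5M in seeds, against 3392, 5551, 4589, 1854 and 4654 TP5M in flowers. Its groups overlapped, and its call (adjusted p = 0.0371) was lost with TMM (adjusted p = 0.22), with all 23 libraries in the fit (adjusted p = 0.161), with named sequences alone or no filter (adjusted p = 0.145 and 0.05) and on leaving out any library but the week 10 seed or florescence on another date (adjusted p of 0.0581 to 0.156). Over the list, 5 of 27 sequences were called higher, all of miR167, and 11 lower, with a median of -0.87 (6 higher and 8 lower with TMM). The shares among all 583 were 8.23% and 41.7%.

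**Figure D3:**
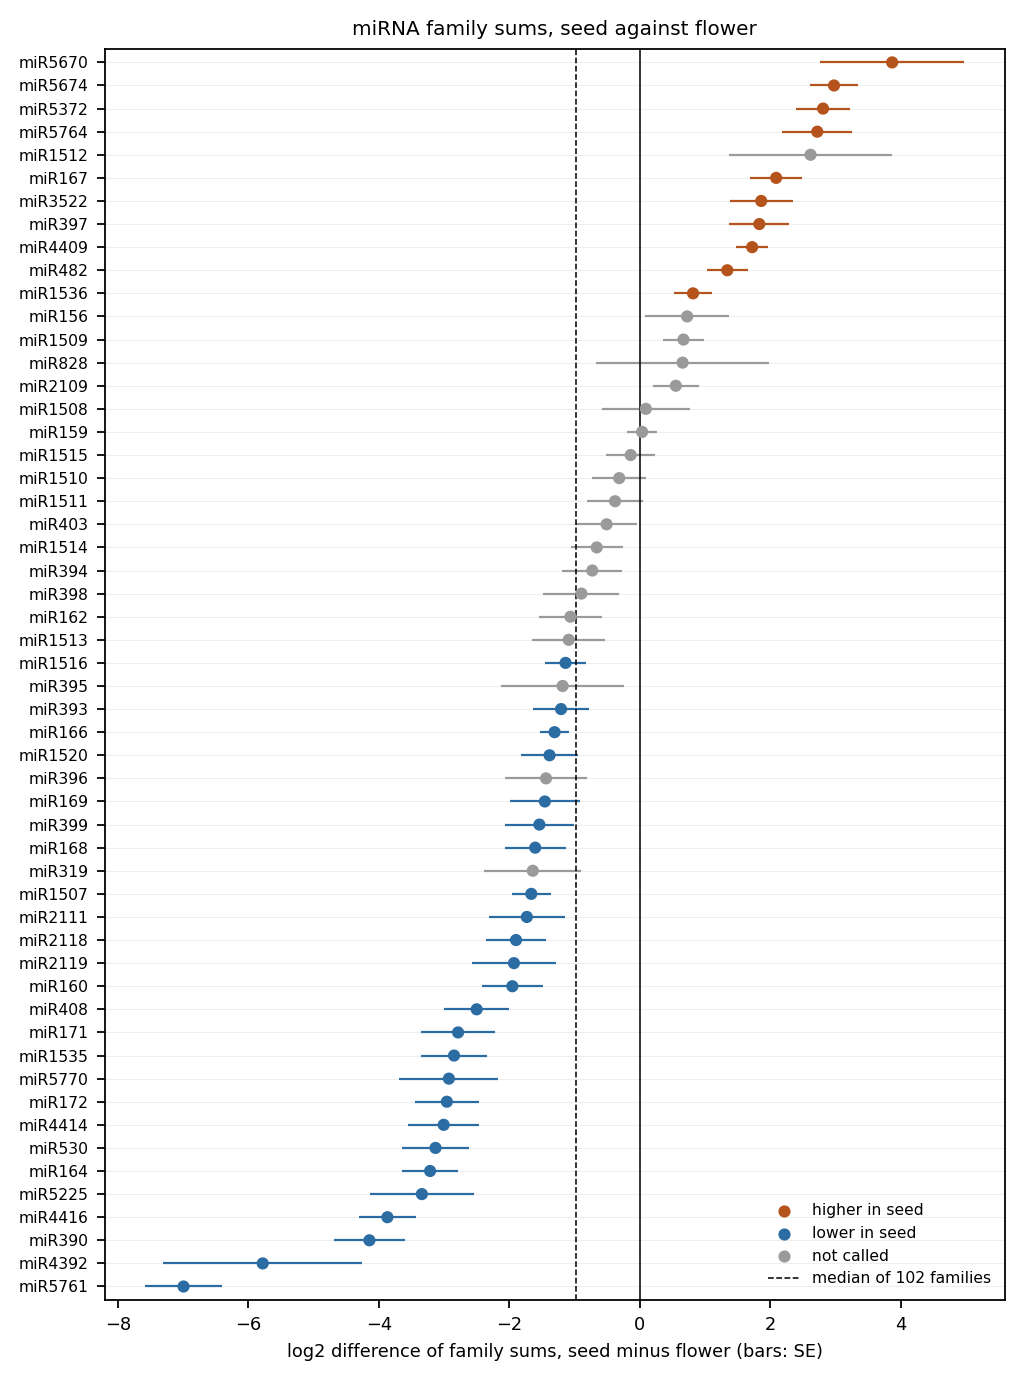
Log2 difference of family sums between seed and flower with its SE, for the 10 families called higher, the 12 called lower with the largest differences and every tested family of the lists; the dashed line is the median of all 102 families, -0.98. miR167 lies at 2.09, while miR390, miR164, miR172 and miR171 lie between -4.15 and -2.79.

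miR169 targets NF-YA subunits of nuclear factor Y. Of 32 sequences tested, 15 were called lower and none higher, with a median of -1.31 (11 lower with TMM). The share is near the 41.7% lower among all 583. M4696-3p, a 3p arm with an older name of miR169 (chromosome 13, 5838675 to 5838980, plus strand), was listed at 0 in all 3 seeds and had 1127, 1503, 1159.8, 122 and 1085 TP5M in flowers, at least 281-fold lower in seeds (log2 difference -7.27, SE 0.77, adjusted p = 0.000149). Florescence on another date held far less than the other flowers, and without it the difference was -7.92 (adjusted p = 2e-06). miR169a had 67.5, 37.9 and 1565 TP5M in seeds and 884, 1577, 2925, 358 and 2511 TP5M in flowers, with the week 10 seed as high as flowers, and was not called (adjusted p = 0.0584, 0.00489 without that seed and 0.0338 without florescence on another date). M7060-5p, which differs from miR169a by C1T, with the base of miR169a first, was listed at 0 in all seeds and had 4206, 2409, 0, 295 and 1595 TP5M in flowers, with 1 flower at 0. Its call (adjusted p = 0.0185) was lost on leaving out any 1 seed (adjusted p of 0.0514 to 0.0621), while the difference was -8.22 without florescence, -5.79 without the flower bud and -5.99 without the bud before flowering. The miR169 family sum was lower (log2 difference -1.46, adjusted p = 0.0404), but overlapped between the organs and lost the call with TMM (adjusted p = 0.146), with all 23 libraries in the fit (adjusted p = 0.172), with named sequences alone or no filter (adjusted p = 0.123 and 0.0546) and without any library but the week 10 seed or florescence on another date (adjusted p of 0.0608 to 0.151).

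miR159 and miR319 are related in sequence, and target GAMYB and TCP factors. miR159a-3p was the most abundant sequence in all 8 libraries, with 112545, 165172 and 220852 TP5M in seeds and 162855, 166458, 166039, 126478 and 158785 TP5M in flowers. The week 6 seed lay below all flowers and the week 10 seed above them. It was not called (log2 difference 0.04, adjusted p = 0.87), but was called higher with TMM (log2 difference 0.66, adjusted p = 0.00851). miR319a had 2290.5, 2661 and 3124 TP5M in seeds, against 15062, 17347, 20019.7, 3853 and 15182 TP5M in flowers (log2 difference -2.23, SE 0.52, adjusted p = 0.00718). miR319n (chromosome 13, 27068589 to 27068684, minus strand) had 0.9, 1.19 and 1.12 TP5M in seeds, which is 1 read in each, against 338, 324, 370.4, 412 and 434 TP5M in flowers (log2 difference -5.96, SE 0.30, adjusted p = 4.03e-06). The groups did not overlap for either. miR319a was not called with all 23 libraries in the fit (adjusted p = 0.0652). M2135-3p, of the same family, was listed at 0 in the week 6 and week 8 seeds, at 21939 TP5M in the week 10 seed and at 1564, 2508, 2044, 2019 and 1885 TP5M in flowers (adjusted p = 0.13, and 6.22e-06 without week 10). The miR319 family sum was not called (adjusted p = 0.0889), and was without the week 10 seed (log2 difference -2.56, adjusted p = 0.0144) or without florescence on another date (adjusted p = 0.0206). Of 17 sequences on the list 9 were lower and none higher, beside 41.7% and 8.23% of all 583. The median was -1.84, and with TMM 5 were lower and 2 higher.

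Among miRNAs of copper proteins, miR397 was higher and miR408 lower in seeds. miR397 targets laccases, and the miR397 family summed to 953, 537 and 324 TP5M in seeds, against 156, 211, 76.8, 156 and 198 TP5M in flowers (log2 difference 1.83, SE 0.46, adjusted p = 0.00832). M3014-5p supplied most of it, with 799, 466 and 243 TP5M in seeds, against 125, 180.3, 63.4, 106 and 156 TP5M in flowers (log2 difference 1.87, SE 0.50, adjusted p = 0.0134), and miR397b-3p had 106, 56.9 and 72.5 TP5M in seeds, against 22.6, 21.8, 7.31, 11.1 and 29.4 TP5M in flowers (log2 difference 1.89, SE 0.41, adjusted p = 0.00543). No flower reached a seed in either case, and the family was highest at week 6. With all 23 libraries in the fit none of these was called (adjusted p = 0.17 for the miR397 family, 0.175 for M3014-5p and 0.117 for miR397b-3p). miR408a-3p, whose targets include plantacyanin and laccases, had 25.2, 4.74 and 2.23 TP5M in seeds, against 72.6, 113, 50, 74.2 and 80 TP5M in flowers (log2 difference -2.65, SE 0.49, adjusted p = 0.00224; -3.26 without week 6). miR398c, which targets copper/zinc superoxide dismutases, had 705, 68.8 and 446 TP5M in seeds and 166, 453, 157, 503 and 410.4 TP5M in flowers and was not called (adjusted p = 0.925). The miR2119 family sum was lower (adjusted p = 0.0299), with groups that overlapped and a call that was lost with TMM, with all 23 libraries in the fit (adjusted p = 0.0823 and 0.122) and on leaving out any of 6 libraries (adjusted p of 0.0511 to 0.121). In all, 2 of 15 sequences were higher and 6 lower, with a median of -1.19 (2 higher and 3 lower with TMM). Among all 583, 8.23% were higher and 41.7% lower.

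Of the 21 sequences of the nutrient list, 10 were lower and none higher, with a median of -1.27 (9 lower and 1 higher with TMM). Among all 583, 41.7% were lower. miR395d, which targets sulphate assimilation and transport genes, had 3.6, 7.11 and 1.12 TP5M in seeds, against 4328, 1581, 451, 29.7 and 257 TP5M in flowers (log2 difference -5.83, SE 1.32, adjusted p = 0.00636; -6.79 without florescence on another date and -5.05 without the flower bud). Its level was highest in the flower bud and every seed was lower than every flower. miR395a starts 1 base earlier than miR395d and also differs from it in its own last base. It had 27, 91.3 and 1007 TP5M in seeds and 16, 37, 25.6, 37.1 and 41.4 TP5M in flowers, the week 10 seed standing out (log2 difference 2.06, adjusted p = 0.0889, and 0.0178 without week 6). The sums of miR399, which targets PHO2 of phosphate supply, and of miR2111, which in Lotus targets the TML gene, were lower (adjusted p = 0.0353 and 0.0319). The miR399 family call was lost with TMM (adjusted p = 0.136), with edgeR (adjusted p = 0.0643), with all 23 libraries in the fit (adjusted p = 0.171) and without most single libraries (adjusted p of 0.0638 to 0.145), though not without the week 10 seed or florescence on another date. The miR2111 family call was lost with TMM (adjusted p = 0.132), with edgeR (adjusted p = 0.11) and without 4 of the 8 libraries (adjusted p of 0.0582 to 0.0705); its difference was -2.43 without the week 8 seed.

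miRNAs of the small RNA machinery were lower or not called: 5 of 10 sequences were lower, none higher, with a median of -1.17, and 2 were lower with TMM. Of all 583 sequences, 41.7% were lower. miR168a targets AGO1 and had 11675, 11478 and 10442 TP5M in seeds, against 19053, 33653, 52992, 15581 and 62021 TP5M in flowers (log2 difference -1.51, SE 0.45, adjusted p = 0.0215). Florescence and 5 days after flowering held the most, and no flower fell to a seed's level. The miR168 family call was lost without the week 10 seed (adjusted p = 0.0523) and with TMM (adjusted p = 0.0795). The miR168a call was lost with TMM (adjusted p = 0.107) and on leaving out any 1 seed (adjusted p of 0.0512 to 0.0716). With all 23 libraries in the fit neither was called (adjusted p = 0.0622 for the family and 0.0716 for miR168a). The opposite arm of another miR168 hairpin, M0479-3p, had 358, 299 and 232 TP5M in seeds, against 2107, 2963, 5102, 1355 and 6398 TP5M in flowers (log2 difference -3.38, SE 0.54, adjusted p = 0.00116), a call kept with TMM (adjusted p = 0.00235). The sums of miR162, which targets DCL1, and miR403, which targets AGO2, were not called (adjusted p = 0.0873 and 0.362); without florescence on another date the miR162 family was (adjusted p = 0.0394), as without the week 10 seed (adjusted p = 0.0144).

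miR828, which targets MYB factors of pigment synthesis, did not separate the organs. miR828a had 666, 249 and 21.2 TP5M in seeds and 15.1, 148, 199, 19.8 and 284 TP5M in flowers (adjusted p = 0.524), and M4358-3p from a miR828 hairpin had 36.9, 3.56 and 0 TP5M in seeds and 0.94, 68.3, 91.4, 1.24 and 148 TP5M in flowers (adjusted p = 0.34). None of the 3 miR828 sequences was called, and their median was 0.73. Of the 22 sequences of the list of other legume families, 2 were higher, miR1512c and gso-miR3522a, and 7 lower, with a median of -0.99 (3 higher and 2 lower with TMM). The shares over all 583 were 8.23% higher and 41.7% lower. The miR1516 family and the miR1520 family were called lower (log2 differences -1.14 and -1.39) but not with TMM (adjusted p = 0.143 and 0.183). The miR1520 family was also not called with all 23 libraries in the fit (adjusted p = 0.173), without the week 10 seed (adjusted p = 0.0533) or without the flower of 5 days after flowering (adjusted p = 0.0513). miR1508, miR1511, miR1513, miR1514 and miR1515 sums were not called, with log2 differences of -1.09 to 0.09; without florescence on another date the miR1513 family and the miR1514 family were called lower (adjusted p = 0.0179 and 0.0281).

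**Figure D4:**
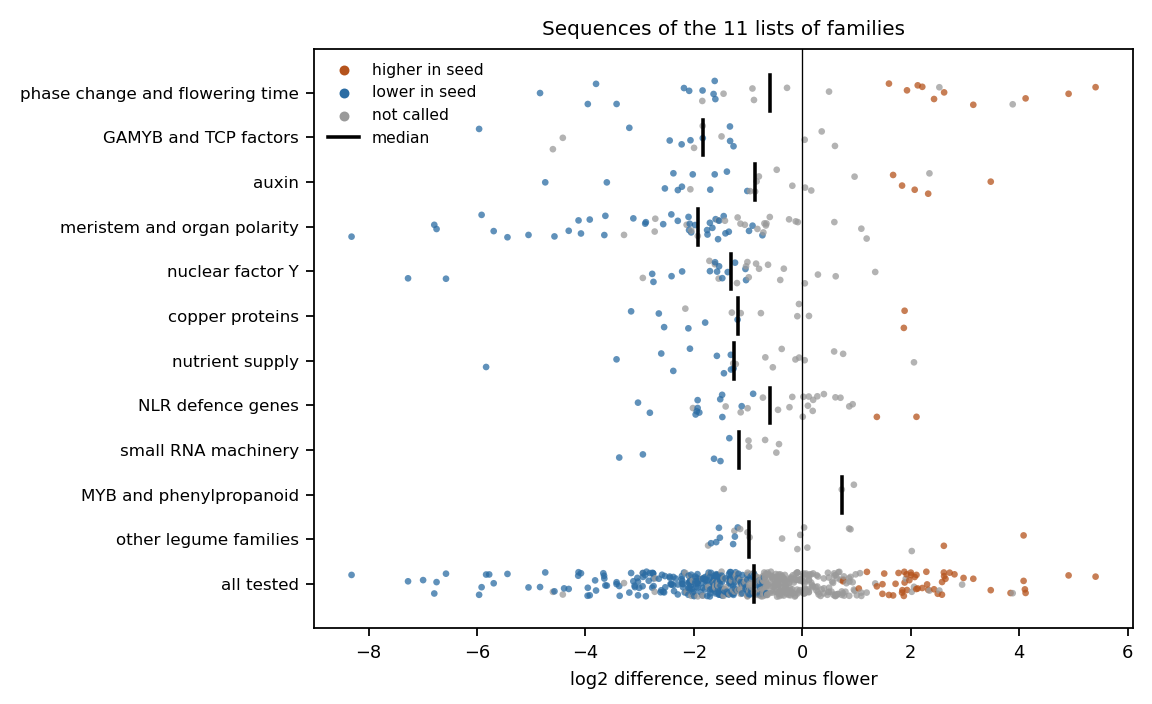
Log2 difference between seed and flower for each tested sequence of the 11 lists of families, and for all 583, with the median of each list as a bar; vertical scatter within a row has no meaning. The medians run from -1.93 for meristem and organ polarity to 0.73 for the 3 sequences of the MYB list, beside -0.90 for all tested, and colour marks sequences called at an adjusted p under 0.05.

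Families on no list gave the largest falls of family sums, those of miR5761 and miR4392. miR5761a (chromosome 10, 50654873 to 50655068, minus strand) had 7.2, 7.11 and 23.4 TP5M in seeds, against 1238, 876, 3963, 2338 and 3621 TP5M in flowers, a 191-fold lower mean (log2 difference -7.00, SE 0.61, adjusted p = 6.75e-05). miR4392 (chromosome 9, 46771234 to 46771343, plus strand) had 0, 1.19 and 0 TP5M in seeds, 1 read in all, against 3542, 1339, 207, 7.42 and 170.2 TP5M in flowers (log2 difference -5.78, SE 1.53, adjusted p = 0.0127; -6.92 without florescence on another date and -4.88 without the flower bud). Its flowers spread widely, with most in the flower bud and least in florescence on another date. M0854-3p, from a miR4416 hairpin, had 0.9, 0 and 2.23 TP5M in seeds, against 381, 119, 183, 38.3 and 75.5 TP5M in flowers (log2 difference -4.39, SE 0.64, adjusted p = 0.000732). M4039-5p had 4.5, 3.56 and 0 TP5M in seeds, against 294, 158, 179, 45.7 and 76.4 TP5M in flowers (log2 difference -4.13, SE 0.58, adjusted p = 0.000638). For both, the flower bud was highest and every seed lay below 5 TP5M. The sums of miR4416, miR530, miR4414, miR1535 and miR5225 were lower as well, with log2 differences of -3.87, -3.13, -3.01, -2.85 and -3.34 (the miR5225 family -4.00 without florescence on another date).

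A pair of near-identical sequences parted. miR5770a (chromosome 18, 50625466 to 50625712, minus strand) had 134, 111 and 44.6 TP5M in seeds, against 639.6, 2827, 1026, 419 and 2917 TP5M in flowers (log2 difference -3.67, SE 0.73, adjusted p = 0.00325). miR5770b (chromosome 7, 16726883 to 16727143, minus strand), which differs at 1 base, had 178, 53.4 and 22.3 TP5M in seeds, against 5.66, 21.8, 6.09, 1.24 and 18.4 TP5M in flowers (log2 difference 2.29, SE 0.67, adjusted p = 0.0189). Each was apart between the organs but in opposite directions; the call of miR5770b was lost without the week 6 seed (log2 difference 1.55, adjusted p = 0.0683), and without the week 10 seed the difference was 2.93. M2706-5p, the same site as miR5770b starting 1 base later, had 52.2, 17.8 and 10.1 TP5M in seeds, against 0, 2.85, 0, 2.47 and 7.36 TP5M in flowers (log2 difference 1.92, SE 0.47, adjusted p = 0.00864). With all 23 libraries in the fit neither miR5770b (adjusted p = 0.211) nor M2706-5p (adjusted p = 0.225) was called. The counts of such near copies depend on how reads with a mismatch were assigned, which is not given in the sources used here.

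The arms of a hairpin come from the same precursor, and their ratio depends on how a library is scaled only through the 5 TP5M added to each. Of 114 hairpins with both arms at a mean of 5 TP5M or more, which hold 198 distinct arm sequences, 43 differed in the 3p to 5p ratio (37.7%): 25 had a higher ratio in seeds (21.9%) and 18 a lower one (15.8%). In 16 of the 43 the more abundant arm by mean differed between the organs, and in 9 this held for every library. The 9 are not independent: M5046, M2072 and M6488, of miR156, share M2072-5p, with 12 reads over all seeds and 31 over all flowers. M6359, also of miR156, has the 3p sequence of M5046, with 10 reads over all flowers. Which arm led in flowers thus rests on few reads for these hairpins. Some hairpins share an arm sequence, and the 43 hold 80 distinct ones.

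The largest shift was in miR166h, whose log2 ratio of 3p to 5p was 6.78, 7.56 and 7.30 in seeds, against 1.06, -0.11, 0.42, 1.14 and -0.92 in flowers (log2 difference 6.90, SE 0.51, adjusted p = 0.000114). Its 5p arm was at most 3.35 TP5M in seeds, whereas miR166h-3p had 840.3, 939 and 1315 TP5M in seeds, against 2859, 3332, 3833, 1596 and 2528 TP5M in flowers (log2 difference -1.42, SE 0.38, adjusted p = 0.0133; adjusted p = 0.0523 without week 8, 0.069 with TMM and 0.0583 with no filter). The 5p sequence is also that of miR166j, so its reads cannot be assigned to 1 of these hairpins. With it, the ratio of miR166j was not called (log2 difference 1.57, SE 0.55, adjusted p = 0.0555). A shift within the miR166h precursor is therefore not shown. In the flowers, neither arm of miR166h led throughout. The ratio of the miR166a hairpin, chosen after its values were seen, differed in the same direction. It was 5.23, 5.74 and 5.84 (log2) in seeds, against 2.92, 2.45, 3.03, 3.15 and 1.99 in flowers (log2 difference 2.90, SE 0.33, adjusted p = 0.000278). Here too the reads cannot be assigned to 1 hairpin, since miR166a-3p is listed for 10 entries and miR166a-5p for 3.

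In miR171j the ratio was 0.10, 0.18 and 1.65 in seeds, against -2.30, -3.34, -2.96, -2.54 and -3.15 in flowers (log2 difference 3.50, SE 0.43, adjusted p = 0.000468), so that the 3p arm led in all seeds and the 5p arm in all flowers. Both arms were lower in seeds, the 3p arm, miR171e, with 77.4, 45.1 and 98.2 TP5M in seeds, against 584, 558, 415, 142 and 503 TP5M in flowers (log2 difference -2.42, SE 0.54, adjusted p = 0.00608). However, the sequence of miR171e is listed for 5 entries, so its reads cannot be assigned to 1 hairpin. A shift within the miR171j precursor is therefore not shown. M5046, of miR156, had a ratio of 5.43, 6.09 and 3.57 in seeds, against -0.97, -0.40, -0.90, -0.26 and -0.80 in flowers (log2 difference 5.69, SE 0.54, adjusted p = 0.00025; 6.42 without the week 10 seed). M2072, also of miR156, had 1.03, 0.85 and 5.01 in seeds, against -1.21, -1.22, -1.88, -0.58 and -0.80 in flowers (log2 difference 3.44, SE 0.94, adjusted p = 0.023; 2.08 without the week 10 seed, 4.16 without week 8, 4.07 without week 6, and adjusted p = 0.0505 without florescence). These hairpins share the 5p sequence M2072-5p, which had 4.5, 2.37 and 5.58 TP5M in seeds and 6.6, 6.64, 13.4, 2.47 and 3.68 TP5M in flowers (adjusted p = 0.476). For M3967, of miR172, the ratio of 0.00 in all seeds came from both arms at 0, against -3.10, -3.29, -4.19, -2.71 and -2.83 in flowers (log2 difference 3.22, SE 0.35, adjusted p = 0.000272).

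Toward the 5p arm, M4696 of miR169 had a ratio of -0.93, -1.28 and -1.36 in seeds, against 6.04, 5.10, 4.81, 3.51 and 4.95 in flowers (log2 difference -6.07, SE 0.51, adjusted p = 0.000143). Its 5p arm had 4.5, 7.11 and 7.81 TP5M in seeds and 12.3, 38.9, 36.5, 6.18 and 30.4 TP5M in flowers, so in seeds the ratio rests on few reads. M2706 of miR5770 had -2.13, -1.41 and -1.59 in seeds, against 2.96, 3.40, 3.64, 1.66 and 3.14 in flowers (log2 difference -4.67, SE 0.46, adjusted p = 0.000251), with 8.1, 3.56 and 0 TP5M of the 3p arm in seeds, against 34, 77.8, 57.3, 18.5 and 104 TP5M in flowers (log2 difference -2.74, SE 0.54, adjusted p = 0.003). In both the 3p arm led in all flowers and the 5p arm in all seeds. However, these 3p sequences are also those of the hairpins M7060 and M6996, so their reads cannot be assigned to 1 hairpin. The ratios of M7060 and M6996 were not called (log2 difference -0.70 and 0.625, adjusted p = 0.824 and 0.246). The 5p arm led in every flower for M6996 and in every flower but florescence for M7060. M1130 and M0505, both of miR164 and with the same 5p arm, had lower ratios in seeds, where both arms were near 0 (log2 difference -5.08, SE 0.40, adjusted p = 0.000114 and log2 difference -3.35, SE 0.37, adjusted p = 0.000278). M1934, of miR1509, had -8.13, -8.35 and -9.53 in seeds, against -5.44, -4.44, -4.70, -6.17 and -4.38 in flowers (log2 difference -3.64, SE 0.52, adjusted p = 0.00105), its 5p arm leading in all 8 libraries.

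**Figure D5:**
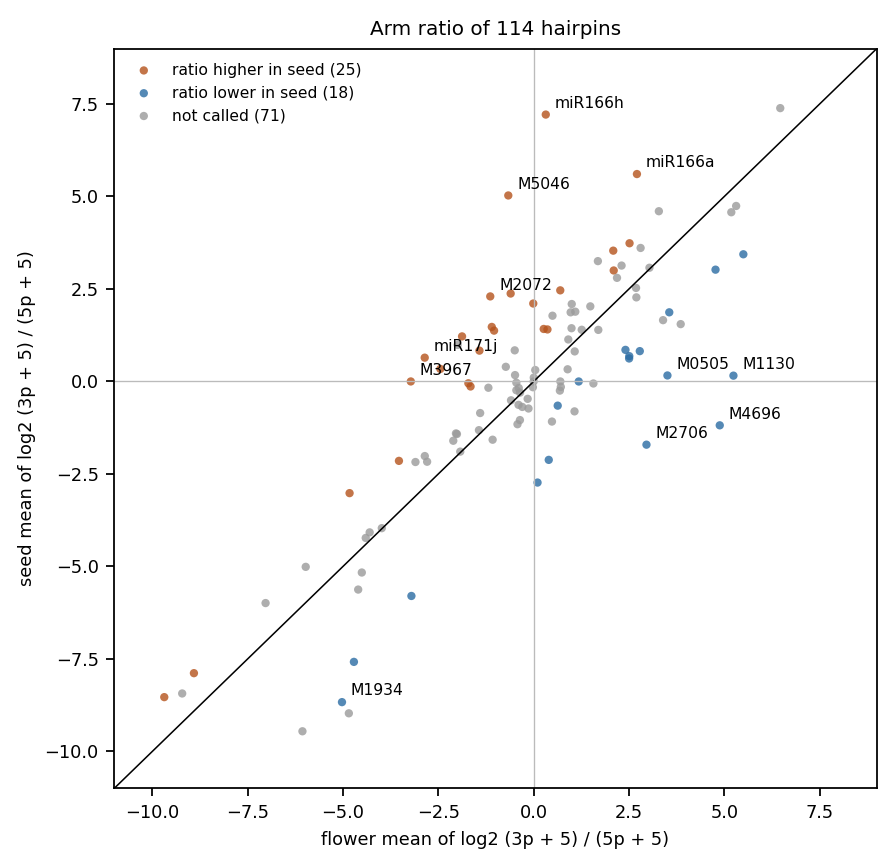
Mean log2 ratio of the 3p to the 5p arm in seed (vertical axis) against flower (horizontal axis) for 114 hairpins, each arm taken as TP5M + 5; the diagonal marks equal ratios, and colour marks the 25 hairpins with a higher and the 18 with a lower ratio in seed. miR166h lies farthest above the diagonal, by 6.90, and M4696 farthest below it, by -6.07.

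The summed level of the table overlapped between the organs. The sequences summed to 388295, 443052 and 524295 TP5M in seeds and to 517779, 593094, 578070, 339151 and 565020 TP5M in flowers, with florescence on another date lowest of all (exact two-sided permutation test, p = 0.393). Length sorts plant small RNAs by the enzyme that cut them, most miRNAs being 21 nt. The 20 nt class made up 1.19, 1.08 and 1.11% of the sum in seeds, against 3.23, 3.35, 4.04, 1.72 and 3.30% in flowers, with every seed below every flower (exact permutation p = 0.0357, the smallest that 3 against 5 can give in 56 arrangements, and 0.119 adjusted over 5 classes). The 22 nt class made up 26.8, 22.4 and 19.8% in seeds and 20.5, 19.8, 17.8, 19.5 and 15.8% in flowers (exact permutation p = 0.0714, adjusted 0.119). The 21 nt share was 75.4 ± 3.6% in seeds and 77.8 ± 1.78% in flowers (SD, n = 3 and 5, exact permutation adjusted p = 0.402). Leaving out miR159a-3p, which alone took 29.0 to 42.1% in seeds and 28.1 to 37.3% in flowers, the 22 nt class made up 37.7, 35.6 and 34.2% in seeds, against 29.9, 27.5, 25.0, 31.1 and 21.9% in flowers (exact permutation p = 0.0357, adjusted 0.0595). The 22 nt and 20 nt classes each lean on 1 sequence. M4031-5p, of 22 nt, had 65351, 54066 and 45013 TP5M in seeds, against 5657 to 17573 TP5M in flowers. miR319a, of 20 nt, had 2290.5 to 3124 TP5M in seeds, against 3853 to 20019.7 TP5M in flowers. The shares without these were not computed, so the class differences may be those of single sequences. Adjusted over the classes, no share passed 0.05.

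Length, first base and arm were compared between the called sets. Sequences of 21 nt were 24 of the 48 higher in seeds, 136 of the 243 lower and 307 of all 583, and those of 22 nt were 19, 91 and 220. T stood first in 50.0% of those higher, 51.4% of those lower and 52.3% of all. Of the 48 higher, 60.4% had a family, against 69.5% of the 243 lower and 62.1% of all 583. Entries marked as 3p arms were 43.8% of those higher, 37.0% of those lower and 39.1% of all tested. These shares describe the lists and were not tested.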

How the data were processed

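The authors deposited 1 table of mature miRNA levels in 23 libraries, a normalised signal in tags per 5000000 (TP5M), per the file headers. Per the labels' protocols, RNA was extracted with TRIzol, fragments of 15 to 30 nt were cut from a gel, amplified over 16 PCR cycles and sequenced on a Hi-Seq instrument. The submitters' processing notes list BWA, with no role or version. Genome build, mismatch rule and handling of reads with several sites: not given in the sources used here. Library and column were matched by the sample number in the title; the labels hold another bracketed number that would give a different match.

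Entries with the same sequence were merged by their maximum, giving 2839 sequences from 3933 entries (580 sequences stood in more than 1 entry, of which 2 had differing values). Seeds and flowers were compared on log2(TP5M + 5) with limma 3.58.1 and Benjamini-Hochberg adjustment, fitted on the 8 libraries over 583 sequences with a mean of 5 or more; the added 5 understates differences of low sequences. Family sums were tested alike, single values by exact permutation. The 3p to 5p ratios were fitted with limma too, but without the trend of variance with level used for sequences and family sums. They had no TMM or edgeR alternative. A family comprises sequences of its name or older name, those sharing 18 bases with one, and those whose hairpin overlaps a named hairpin. All 28843 low values checked (100%) were whole reads within 0.1 read, and edgeR 4.0.16 quasi-likelihood fits on these reads were an alternative. Other alternatives were TMM scaling, all 23 libraries in the fit, other filters, a pseudocount of 1 and leaving out each library. The fits were tested on simulated data. Sequences named were the 15 called with the largest difference in each direction (1 per family or unnamed locus), the 10 most abundant, the 2 most abundant of each list, and 25 chosen after their values were seen; 1 further sequence is not reported here. The members and lists were chosen with earlier results of these data known.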

Additional observations from a re-analysis of the deposited data

Results flagged for a closer look

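Of 146 results examined for a flower library far from the other 4, 17 had one, where chance alone picks out about 1 in 20 groups. In 14 of them florescence on another date was the low one, and in 1 it was the high one. Its levels that stood below the other flowers were 122 TP5M of M4696-3p, 367 TP5M of M1130-3p, 126478 TP5M of miR159a-3p, 3853 TP5M of miR319a, 3056 TP5M of miR396b-5p, 66.8 TP5M of miR172a and 142 TP5M of miR171e. Among family sums it stood below the rest with 126908 TP5M for miR159, 43845 TP5M for miR166, 2806 TP5M for miR169, 12.4 TP5M for miR2119, 7257 TP5M for miR319, 5646 TP5M for miR396 and 188 TP5M for miR399. The 24 nt class took a larger share there, 0.187% of the summed level. The flower bud stood out for M0775-5p, with 27.4 TP5M above the other flowers, and for M4081-5p, listed at 0 below the others, which had at most 1.24 TP5M and so 1 read. In this last case the gap is that of a single read.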

How the results depend on the processing

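No paired analysis was possible because each library is a different stage and the numbers given to libraries name no shared plant, batch or day. The sequences called numbered 291, and 177 of the 304 with a mean of 20 TP5M or more were; arm ratios called were 43 of 114, and 20 of the 57 with both arms that abundant, fewer being tested in each case. Leaving out 1 library gave 213 to 333 called sequences. Over all values, 1897 alternatives kept direction and side of the threshold, 124 kept the direction but lost the call, 36 gained one and 33 changed sign. The cause of a change was not tested. The sign changed with TMM for M2072-5p (0.032), the miR1510 family (0.29), the miR1511 family (0.23), the miR1515 family (0.46) and miR398c (0.51). With edgeR it changed for M2135-3p (1.87), the miR1508 family (-0.016) and miR398c (0.27). With edgeR and TMM it changed for M2072-5p (0.014), M2135-3p (2.40), the miR1510 family (0.45), the miR1511 family (0.34), the miR1515 family (0.58), the miR398 family (0.075), miR398c (0.90) and the miR403 family (0.17). From named sequences alone the miR1510 family had 0.021. These are log2 differences of results not called as reported. Leaving out single libraries gave values of both signs for uncalled results: -0.188 to 0.298 for miR159a-3p, -0.198 to 0.288 for the miR159 family, -0.745 to 0.888 for miR398c, -0.062 to 2.28 for miR828a, -0.425 to 2.02 for the miR828 family, -0.374 to 0.54 for the miR1508 family, -0.57 to 0.164 for the miR1510 family and -0.569 to 0.104 for the miR1515 family. The share of the summed level by length class, 23 nt, differed by -0.0779 to 0.127 percentage points.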

Other observations

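Across all 23 libraries, the sequences higher in seeds than in flowers were not all highest in seeds. Of the 48, 27 had their highest library among the 3 seeds and 15 among the 2 cotyledon libraries, while 4 peaked in stem, 1 in leaf and 1 in pod. Over all 583 tested, 63 peaked in seed and 74 in cotyledon. M0095-3p was above 0 in no library other than the seeds, with up to 45.1 TP5M. gso-miR3522a reached 110428 TP5M in cotyledon, against at most 4975 TP5M in seed, and miR5372 reached 29274 TP5M in cotyledon, against 27196 TP5M in seed. M5046-3p was highest in stem, at 641 TP5M, and miR1512c in pod, at 8700.3 TP5M.

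Of the 243 sequences lower in seeds, 86 peaked in flower, 79 in leaf, 21 in cotyledon, 20 in pod, 19 in stem, 17 in leaf bud and 1 in root. Among all 583 the counts in that order were 146, 161, 74, 59, 52, 25 and 3. Flower thus held the peak of 35.4% of the 243 and 25.0% of all 583, and leaf that of 32.5% and 27.6%. miR5761a was far more abundant in leaf, with up to 58752 TP5M, than in flower, with up to 3963 TP5M. miR166h-5p was highest in flower, at 4789 TP5M, with 2623 TP5M in leaf and 3.35 TP5M in seed. The organs have 1 to 6 libraries each, and the chance of holding the highest value grows with that number. The sets were also chosen by their levels in seed and flower, which bears on where they peak. These orders were not tested.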
